A study of Drosophila melanogaster with 136 samples.

Results

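Mitochondrial ribosomal proteins are the nuclear-encoded proteins of the ribosome inside the mitochondrion. The members were the probe sets annotated to 1 gene whose symbol begins with mRpL or mRpS and a number. There were 71 of them among 18769 probe sets analysed, for 69 of 11982 genes: 45 probe sets for 44 proteins named after the large subunit and 26 for 25 named after the small one. mRpS11 and mRpL47 each had 2 probe sets. The rule that selects them reads gene names and no signal.

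The mitochondrial ribosome translates the few messenger RNAs of mitochondrial DNA, which encode core subunits of the respiratory chain and the ATP synthase. Its ribosomal RNAs come from mitochondrial DNA, while all of its proteins are made in the cytosol and imported. Some have bacterial counterparts and share their numbers, and others, mostly with higher numbers, were added in the course of mitochondrial evolution. In the fly, tko and bonsai are members of the same ribosome with older names. Mutants of tko are known for bang sensitivity and slow growth, and those of bonsai for reduced growth.

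RNA was hybridised to Affymetrix Drosophila Genome 2 arrays, 4 in each of 34 groups, and 134 of the 136 arrays were used. The 22 adult tissue, head and whole-fly groups came from wild-type Canton-S flies 7 days old, with mated and virgin females sampled separately for the spermatheca. Third-instar Canton-S larvae gave 9 groups at the feeding stage and 2 at the later wandering stage, and S2 cells, an embryonic line at passage 5, gave the last. Every array of animal tissue held RNA of many pooled animals, and the labels do not tell which animals or cultures went into a replicate, so p-values measure only the spread between these samples.

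Several dissections hold more than their name. The eye includes cuticle, the heart includes attached fat body, the spermatheca is surrounded by fat body, the adult carcass is abdominal cuticle, and the larval carcass is what other dissections left. The accessory gland, a male organ, is labelled as taken from both sexes. Thoracic muscle and a further mated spermatheca set, called redone, had 3 usable arrays each; in the redone set replicates 1 and 3 had 1 round of amplification and replicate 4 had 2. The array labelled thoracic muscle replicate 4 had a summed muscle marker signal of 144 and a spermathecal one of 22240, and the array labelled redone mated spermatheca replicate 2 had 70640 and 11.2, so both went against their labels and were left out. In the thoracic muscle arrays used, the muscle list summed to 34560 to 56910, against 1497 to 2217 in the whole fly. The fat body list summed to 20870 to 26430, against 6983 to 9763 in the whole fly. That list summed to 11600 to 18160 in the dissected adult fat body and to 4403 to 5487 in the adult brain. It is thus not particular to fat body, and here and below it does not measure fat body content. Tissue and whole-animal arrays differ in labelling for the eye, heart and larval trachea, which had the IVT-Express kit, and for the first mated and virgin spermatheca sets, which had 2 rounds of amplification in place of 1. In those comparisons labelling and tissue cannot be told apart, and in the redone set labelling is mixed. The sample numbers of the series fall in separate blocks. Only hindgut, midgut, accessory gland, brain, crop, head, ovary and testes share the whole fly's block. Larval hindgut, midgut and salivary gland lie outside the whole larva's block. Of the adult and larval pairs only fat body shares a block. Elsewhere block cannot be told apart from tissue or stage.

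No detection calls were used here. The group mean of each of the 71 members lay at or above the median signal of the group's arrays, which does not by itself show detection. Each member reached a signal of 100, the trimmed mean of every array, in at least 1 group. All passed the filter on low signal in every comparison. Signals are in the arrays' linear intensity units. Levels and folds were taken as log2(signal + 10), and the added 10 makes folds of dim probe sets smaller than they would otherwise be. In bulk tissue fewer cells of a type and less RNA per cell cannot be told apart.

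The mean level of the 71 members was highest in thoracic muscle, at 8.45 ± 0.08 on the log2 scale (SD, n = 3), a geometric mean signal of 339. The ovary followed at 8.33 ± 0.01 (SD, n = 4), a signal of 311. The 3 muscle arrays lay between 321 and 361 and the 4 ovary arrays between 308 and 315, so the groups did not overlap. Next came the thoracoabdominal ganglion, the adult brain and the larval central nervous system, with signals of 275, 246 and 244, of which the last pair overlapped. From the adult hindgut at 7.84 ± 0.02 down to wandering larval tubules at 6.90 ± 0.02, each group overlapped the next in order. The arrays thus do not separate these neighbours, and whether their mean levels differ was not tested. The whole fly stood at 7.80 ± 0.10 and the whole larva at 7.19 ± 0.10. Beneath the tubules lay testes at 6.78 ± 0.02 and wandering larval fat body at 6.67 ± 0.07, a signal of 91.7, and neither overlapped the group above it. After quantile normalization muscle stayed first and these 3 groups stayed last in the same order, while the ovary took rank 3 and the ganglion rank 2.

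**Figure D1:**
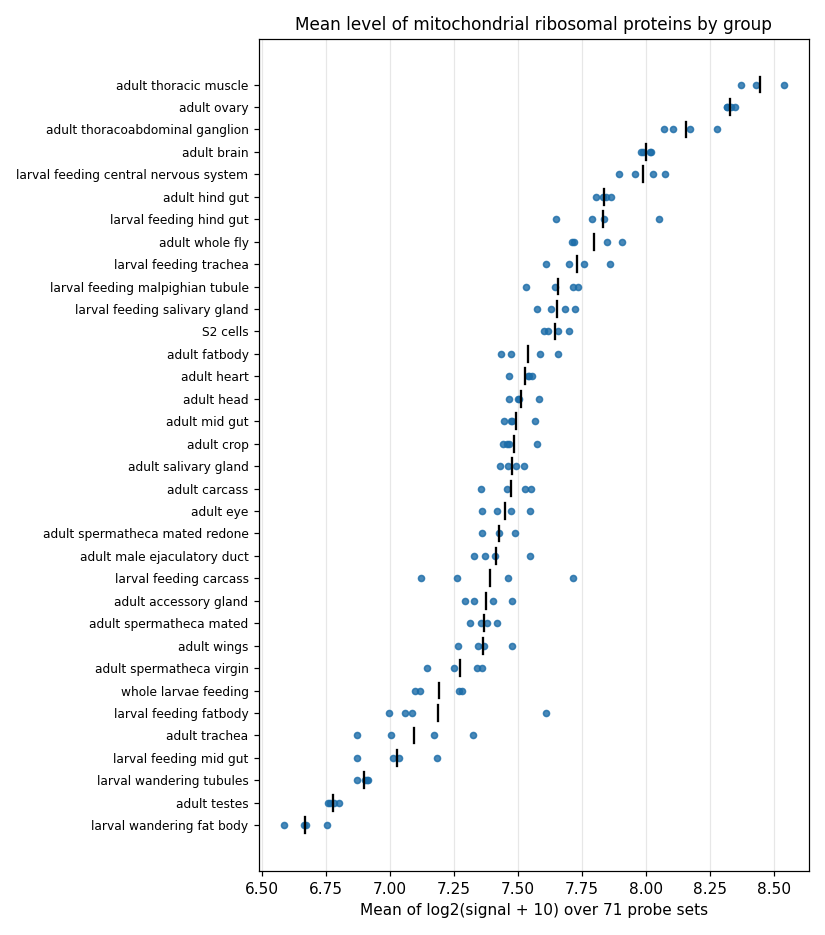
Mean level of the 71 members in each array, on the log2(signal + 10) scale (x axis), by group (y axis, highest mean on top). Points are arrays and vertical bars are group means; thoracic muscle at 8.45 and ovary at 8.33 stand apart at the top, and wandering fat body at 6.67 lies lowest.

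Single members followed this order loosely. Of the 71, 36 had their highest group mean in muscle (50.7%, against 6.54% of the other probe sets that reached a signal of 100 somewhere) and 22 in the ovary (31.0% against 13.0%). The lowest mean fell in testes for 26 members (36.6% against 20.4%) and in wandering fat body for 20 (28.2% against 2.30%). The SD of a member's 34 group means had a median of 0.55, against 0.97 for 11591 other probe sets, of which 9.32% had a smaller SD than 0.55. Between members, Pearson's r over the 34 group means had a median of 0.54, from -0.48 to 0.94, and was below 0 in 67 of 2485 pairs; the points share arrays and scaling, so this is a description.

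The 6 most variable members were mRpL23, at the exit of the peptide tunnel, mRpL13, mRpS30, mRpL27, mRpL39 and mRpL42. mRpL23 had an SD of 0.929 and ranged from a mean signal of 28.2 in wandering fat body to 1138 in muscle. The 4 steadiest were mRpS34, mRpS17, mRpS22 and mRpL43, with SDs of 0.319 to 0.386. mRpS34 kept between 127 in adult trachea and 295 in ovary. mRpS17, counterpart of a bacterial protein that binds ribosomal RNA early in assembly, was highest in testes, at 269, where most members were low.

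**Figure D2:**
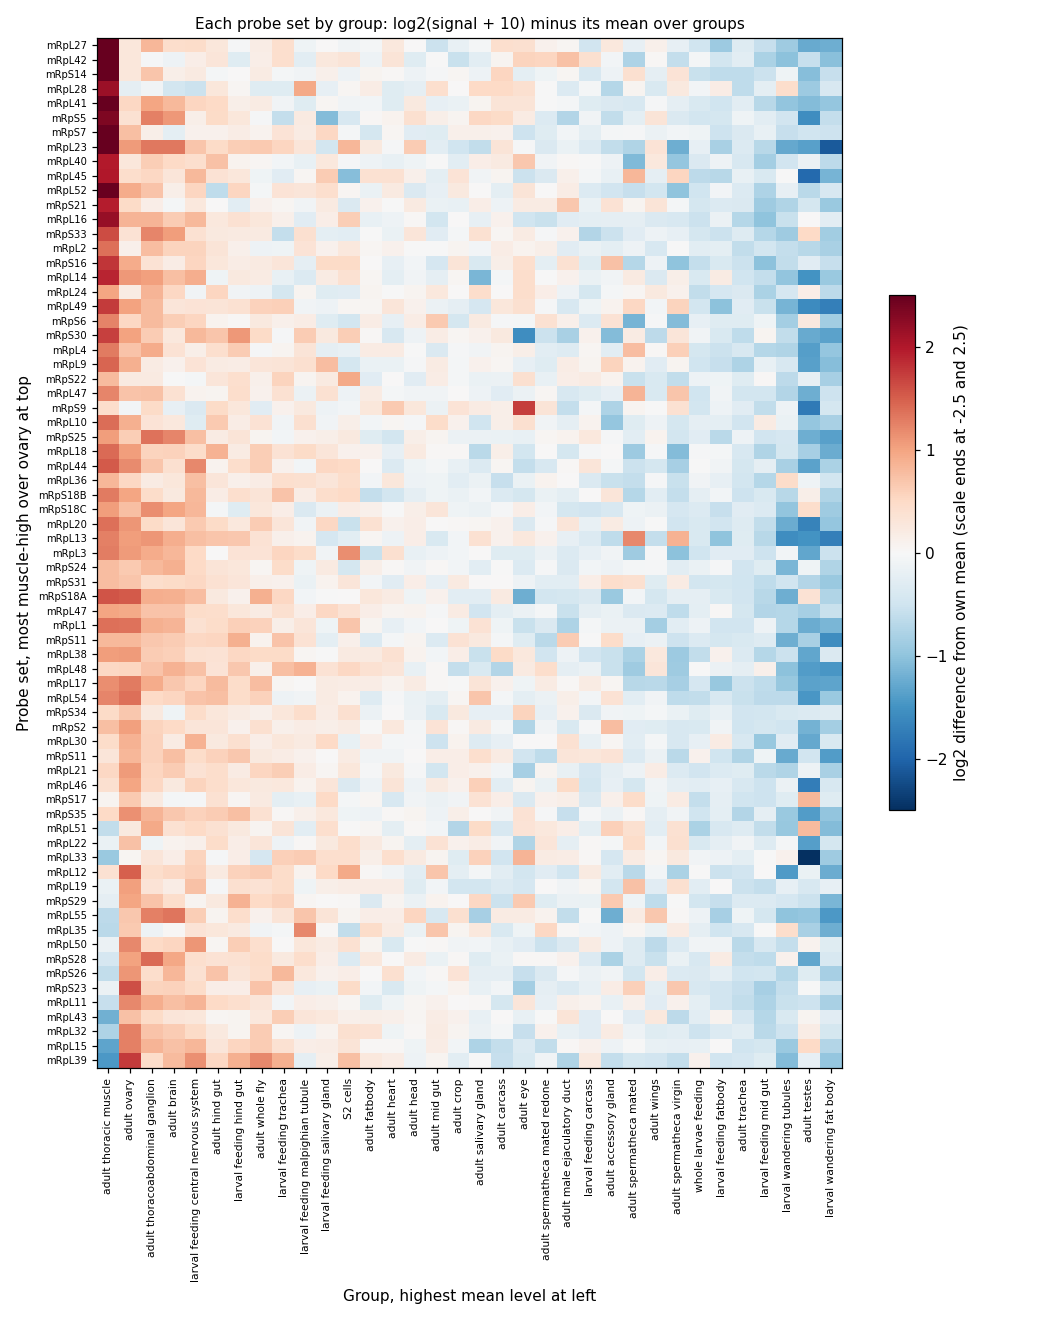
Each of the 71 probe sets (rows, labelled by gene) in each of the 34 groups (columns, highest mean level at left), as log2(signal + 10) minus the probe set's own mean over groups. Red is above and blue below that mean; rows run from muscle-high over ovary at the top to ovary-high at the bottom, so that the first 2 columns change places down the figure.

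In the comparisons that follow, "rose" and "fell" are used of a probe set with a Benjamini-Hochberg adjusted p under 0.05 in limma, over all probe sets tested, and a change of at least 2-fold. Thoracic muscle was the adult tissue in which the largest number of members rose over the whole fly. Of 71 members 24 rose and 5 fell, where 16.8% of the 13615 probe sets tested rose and 32.3% fell. The members' median log2 fold was 0.73 and that of all probe sets -0.34. With the array that went against its label put back, 13 rose and 4 fell. After quantile normalization 36 rose and 2 fell, with medians of 1.00 for the members and 0.18 for all probe sets.

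The 3 largest increases were of large-subunit proteins. mRpL27, whose bacterial counterpart reaches the site of peptide bond formation, had signals of 1256, 1859 and 1675 in muscle, against 200.4, 168, 221 and 231 in the whole fly. mRpL42, without a bacterial counterpart, had 1203, 1693 and 948 in muscle, against 198, 145, 193 and 114 in the whole fly. mRpL41 had 1276, 1540 and 1263 in muscle, against 216, 208, 240 and 205 in the whole fly. In each case every muscle array lay far above every whole-fly array. The log2 folds were 2.89 ± 0.19 for mRpL27, 2.89 ± 0.26 for mRpL42 and 2.59 ± 0.15 for mRpL41 (SE; adjusted p in limma 2.9e-06, 1.6e-05 and 1.5e-06). The others that rose ranged from mRpL10, of the factor-binding stalk, at 1.03 to mRpS7 at 2.58.

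The 5 that fell in muscle were mRpL39, mRpL15, mRpL43, mRpL32 and mRpS26. mRpL39, which in mammals resembles a threonyl-tRNA synthetase, had signals of 23.0, 13.6 and 29.2 in muscle, against 210.0, 181, 198 and 159 in the whole fly. mRpL15, counterpart of a core protein of the bacterial large subunit, had 43.6, 41.6 and 65.5 in muscle, against 195, 215, 264 and 211 in the whole fly. mRpL43 had 54.9, 42.5 and 37.1 in muscle, against 139.9, 144, 128 and 147 in the whole fly. No muscle array reached the lowest whole-fly array for any of these 3 genes. Their log2 folds were -2.65 ± 0.20, -1.95 ± 0.19 and -1.46 ± 0.16 (SE; adjusted p in limma 7.1e-06, 2.8e-05 and 6.0e-05). In muscle mRpL39 lay near the median of all probe sets: its mean was 21.95, where the array medians averaged 18.6. In replicate 2, at 13.6, it lay under the array median of 17.5, so the size of its fold is uncertain. mRpL39, mRpL15, mRpL43 and mRpL32 each had their lowest group mean in muscle. Both subunits were called in both directions, with 17 of 45 large-subunit members up and 4 down, and 7 of 26 small-subunit members up and 1 down.

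**Figure D3:**
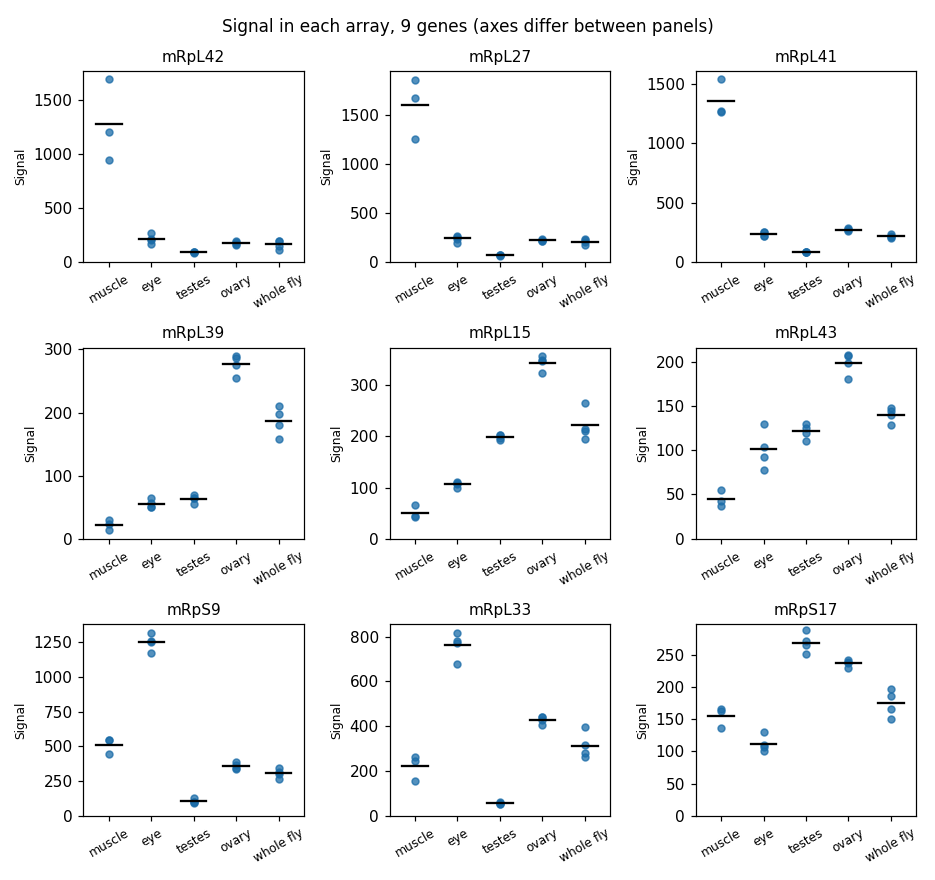
Signal (y axis, linear, from 0, scaled per panel) in every array of thoracic muscle, eye, testes, ovary and whole fly for 9 genes; points are arrays and bars are group means. mRpL42, mRpL27 and mRpL41 stand high in muscle alone of the 5, mRpL39, mRpL15 and mRpL43 low there, mRpS9 and mRpL33 high in eye, and mRpS17 high in testes.

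Other genes of mitochondrial expression divided in muscle. Of 73 respiratory chain probe sets tested (1 per gene) 51 rose and 16 fell, with a median log2 fold of 3.41. Of 12 genes for replication and transcription of mitochondrial DNA 5 rose and 2 fell: TFAM, which packages and transcribes it, rose by 2.32 ± 0.19, and mtSSB, its single-strand binding protein, changed by -3.46 ± 0.16. Among 10 translation factors mEFTu1, which brings aminoacyl-tRNA to the ribosome, rose (signal 1496 ± 84.0, n = 3, against 372 ± 63.9, n = 4) and mEFG1, which moves it along the messenger, fell (57.4 ± 14.0 against 130 ± 20.4). Of 18 mitochondrial aminoacyl-tRNA synthetases 2 rose, PheRS-m and TyrRS-m, and 6 fell. Of 37 cytosolic ribosomal proteins 2 rose and 6 fell.

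In the ovary no member rose or fell in this sense, but nearly all shifted the same way. Of all probe sets 12.5% rose and 29.5% fell there. All 71 members had a log2 fold over the whole fly above 0, from 0.07 to 0.98 (1 member rose without whole-fly replicate 3), with a median of 0.55 against -0.05 for all probe sets. By limma's adjusted p alone, a rule added after the data were seen, 62 of 71 were higher and 0 lower (63 and 0 at an unadjusted p under 0.05), where 37.7% of all probe sets were higher. The arrays lay apart and higher in the ovary for 61 members, as for 36.4% of all probe sets. After quantile normalization the members' median was 0.36 and that of all probe sets 0.41, so their position relative to all probe sets depended on the scaling. The ovarian germline markers summed to 2791 to 2933 in the ovary and to 685 to 858 in the whole fly, which contains ovaries.

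Other mitochondrial genes were called in the ovary too, where no member was. There 39 of 73 respiratory chain genes fell and 0 rose, with a median of -1.04. mtDNA-helicase rose (170.0 ± 9.38 against 65.9 ± 2.29, n = 4 each), as did AspRS-m, IleRS-m, LeuRS-m and mEFG1. Set side by side, 34 members had every muscle array above every ovary array, 25 had every muscle array below, and 12 overlapped; of all probe sets 37.6% lay above and 24.4% below. The pair was chosen after the levels were seen, and no test was made of it.

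The comparison with the most members called was between the gonads. In testes 53 of 71 members fell relative to the ovary and 0 rose, where 32.5% of 13518 probe sets fell and 22.9% rose. The members' median log2 fold was -1.62, against -0.15 for all probe sets. After quantile normalization 45 fell, with medians of -1.29 and -0.46. By subunit, 35 of 45 large-subunit members fell with a median of -1.87, and 18 of 26 small-subunit members with a median of -1.32.

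mRpL54, without a bacterial counterpart, had signals of 26.7, 21.7, 31.3 and 35.4 in testes, against 269, 271, 266 and 247 in ovaries. mRpL20, whose bacterial counterpart acts early in large-subunit assembly, had 44.3, 49.5, 40.7 and 50.2 in testes, against 388, 346, 399 and 362 in ovaries. mRpL33 had 60.4, 50.8, 51.8 and 57.1 in testes, against 403, 439.6, 428 and 439.7 in ovaries. For each of these 3 genes every testis array lay below every ovary array. The log2 folds were -2.83 ± 0.11, -2.77 ± 0.08 and -2.75 ± 0.07 (SE; adjusted p in limma 9.9e-10, 1.1e-10 and 4.7e-11).

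A few members stood outside this. mRpL51, named after its values were seen, was higher in testes at 313 ± 16.9 against 211 ± 2.10 in ovaries (SD, n = 4 each; log2 fold 0.55 ± 0.06, adjusted p in limma 1.1e-05), short of 2-fold. mRpS17 had 265, 272, 288 and 251 in testes, against 230.4, 238, 242 and 239.5 in ovaries (log2 fold 0.17 ± 0.06, adjusted p in limma 0.028). The testis arrays of mRpS17 lay above the ovary arrays without overlap, by a small margin.

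**Figure D4:**
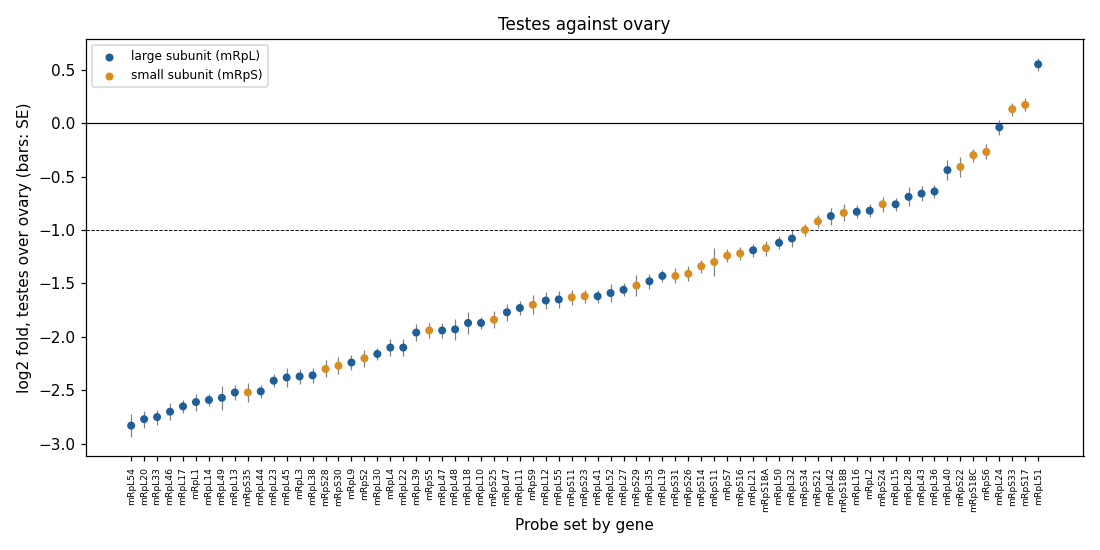
log2 fold of each member, testes over ovary (y axis; bars are SE), for the 71 probe sets in order of fold (x axis), coloured by subunit. Points under the dashed line at -1 changed by more than 2-fold; all but 3 of the 71 lie below 0, and mRpL51 at 0.55 is the highest.

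The wider machinery split between the gonads. tko fell to 63.8 ± 6.77 in testes, against 432 ± 6.40 in ovaries (SD, n = 4 each; log2 fold -2.59 ± 0.07, adjusted p in limma 1.2e-10). bonsai fell to 147 ± 7.06, against 513 ± 30.2. Of 12 genes for mitochondrial DNA replication and transcription 10 fell and 0 rose, with mtSSB at 25.2 ± 0.896 in testes and 870.0 ± 21.8 in ovaries. Among 10 translation factors 6 fell and 3 rose: mEFTu1 fell by 1.86 and mRF1, a release factor, fell by 2.12 on the log2 scale, while mEFTu2 rose by 2.36 and mEFTs, which recharges such factors, by 2.26. Of 18 synthetases 12 fell and 3 rose, with CysRS-m at 1129 ± 76.9 in testes and 83.8 ± 1.67 in ovaries, and TrpRS-m at 1479 ± 139.9 and 168 ± 13.1. HisRS, ThrRS and GlyRS of this list also serve the cytosol. Of 25 import genes 13 rose and 4 fell, of 73 respiratory chain genes 24 rose and 17 fell, and of 37 cytosolic ribosomal proteins 7 rose and 28 fell. These lists were taken by name, and paralogs were not counted apart. The import list, for example, holds tomboy20 and tomboy40 beside Tom20 and Tom40. The counts therefore do not tell whether the more widely expressed form of a protein rose or fell in testes.

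Against the whole fly 36 members fell in testes and 0 rose, where 40.0% of all probe sets fell and 20.3% rose. The medians were -1.04 for members and -0.63 for all probe sets. The 3 largest decreases were of mRpL33 and mRpL20, at -2.30 ± 0.13 and -2.30 ± 0.10, and of mRpL49, at -2.13 ± 0.12 (SE; adjusted p in limma 1.0e-08, 1.1e-09 and 1.3e-08). Of the large-subunit members 27 of 45 fell and of the small-subunit members 9 of 26; the difference between subunits was not tested.

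The adult brain had 3 members up and 0 down (19.3% of all probe sets rose), and the thoracoabdominal ganglion 4 up and 0 down (17.6% rose), or 9 up after quantile normalization. By the adjusted p alone 37 were higher and 2 lower in the ganglion, with no share of all probe sets by that rule to set beside it. The median log2 fold there was 0.27 for members and -0.10 for all probe sets. After quantile normalization these medians were 0.24 and 0.15. mRpS5, at the entry of the messenger RNA channel, had 1433, 1387, 1319 and 1491 in brain and 1563, 1553, 1739 and 1565 in ganglion, against 597, 671, 650.2 and 699 in the whole fly. mRpL55 averaged 467 ± 18.6 in brain and 447 ± 48.2 in ganglion, against 196 ± 26.8 in the whole fly (SD, n = 4 each). mRpS25 averaged 358 ± 18.1 and 394 ± 32.3, against 156 ± 17.2. The log2 folds of these 3 genes lay between 1.09 and 1.28, and both comparisons share the whole-fly arrays. The neuronal markers summed to 2143 to 2689 in brain and 1329 to 1935 in ganglion, against 73.7 to 95.3 in the whole fly.

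In the eye the members' log2 folds ran from -2.12 to 2.01. There 2 members rose and 13 fell, where 13.7% and 29.6% of all probe sets did. mRpS9, whose bacterial counterpart touches the tRNA carrying the growing peptide, had 1260, 1174, 1248 and 1316 in eye, against 341, 298, 314 and 262 in the whole fly. mRpL33 had 679, 774, 817 and 781 in eye, against 315.5, 280.3, 395 and 262 in the whole fly. Both were without overlap, with log2 folds of 2.01 ± 0.11 and 1.27 ± 0.14 (SE; adjusted p in limma 2.9e-08 and 7.8e-06). mRpS18A fell to 79.5 ± 9.48 in eye against 378 ± 44.1, and mRpS30, which mammalian structures place in the large subunit in spite of its name, to 66.1 ± 4.68 against 303 ± 28.5 (SD, n = 4 each). The photoreceptor markers summed to 13430 to 14620 in eye and 242 to 313 in the whole fly, and the fat body list to 13690 to 21070 in eye; their part in these folds was not tested.

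Across the 22 comparisons with the whole fly, 33 of 1562 folds were called up, in 4 tissues, and 146 down, in 17. Over all 22 comparisons 13.3% of the folds of all probe sets were up and 29.9% down. After quantile normalization the split was 58 up and 114 down. mRpL39 fell in 16 of the 22 and had a fold below 0 in 21, mRpS18A fell in 9 and mRpL23 in 8. In the ejaculatory duct mRpL39 averaged 40.9 ± 4.75, in the carcass 47.8 ± 11.5 and in the wings 51.8 ± 8.73, against 187 ± 22.4 in the whole fly (SD, n = 4 each; log2 folds -1.95 ± 0.13, -1.78 ± 0.16 and -1.68 ± 0.13). The comparisons share the whole-fly arrays and are not independent.

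Among the other adult tissues the fallen members numbered 16 in trachea (27.6% of all probe sets fell), 15 in virgin spermatheca (32.9%), 12 in mated (30.6%) and 6 in redone spermatheca (31.6%). There were 9 each in accessory gland (29.9%) and wings (28.4%), and 7 each in salivary gland (28.3%) and ejaculatory duct (28.8%). In trachea the count ran from 11 to 22 as 1 array was left out, and its fold medians were -0.66 for members and -0.23 for all probe sets. The adult trachea arrays also held markers of other tissues: the heart and nephrocyte list summed to 4865 to 10830, against 36.4 to 56.6 in the whole fly, the hemocyte list to 1392 to 3385, against 127 to 183, and the fat body list to 17700 to 23510, against 6983 to 9763. The tracheal list summed to 712 to 1623, against 128 to 223, and the part of the other tissues in these folds was not tested. Crop (27.4%) and carcass (26.5%) had 3 each, the heart 2 (32.6%), and midgut (30.4%), head (24.5%) and S2 cells (29.3%) 1 each. mRpL20 was the member that fell in S2 cells, to 111 ± 8.77 against 267 ± 22.0 in the whole fly. In hindgut and fat body limma called 0 members, where 38.6% and 41.4% of all probe sets changed. At an unadjusted p under 0.05, 21 were higher and 17 lower in hindgut, and 5 were higher and 33 lower in fat body. In no tissue of this paragraph did a member rise. After quantile normalization the fallen members numbered 8 in virgin, 7 in mated and 1 in redone spermatheca, 3 each in head and S2 cells and 0 in heart and midgut, and 1 member rose in each of 7 of these groups. The redone count was 5 without its 2-round array. In the heart it was 1 without heart replicate 1 or 4 or whole-fly replicate 1 or 3, and in fat body 2 fell without whole-fly replicate 4. The single decreases became 2 in midgut without midgut replicate 3 or 4 or whole-fly replicate 2, 3 or 4, in head without head replicate 1 or 4 or whole-fly replicate 4, and in S2 cells without whole-fly replicate 2.

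**Figure D5:**
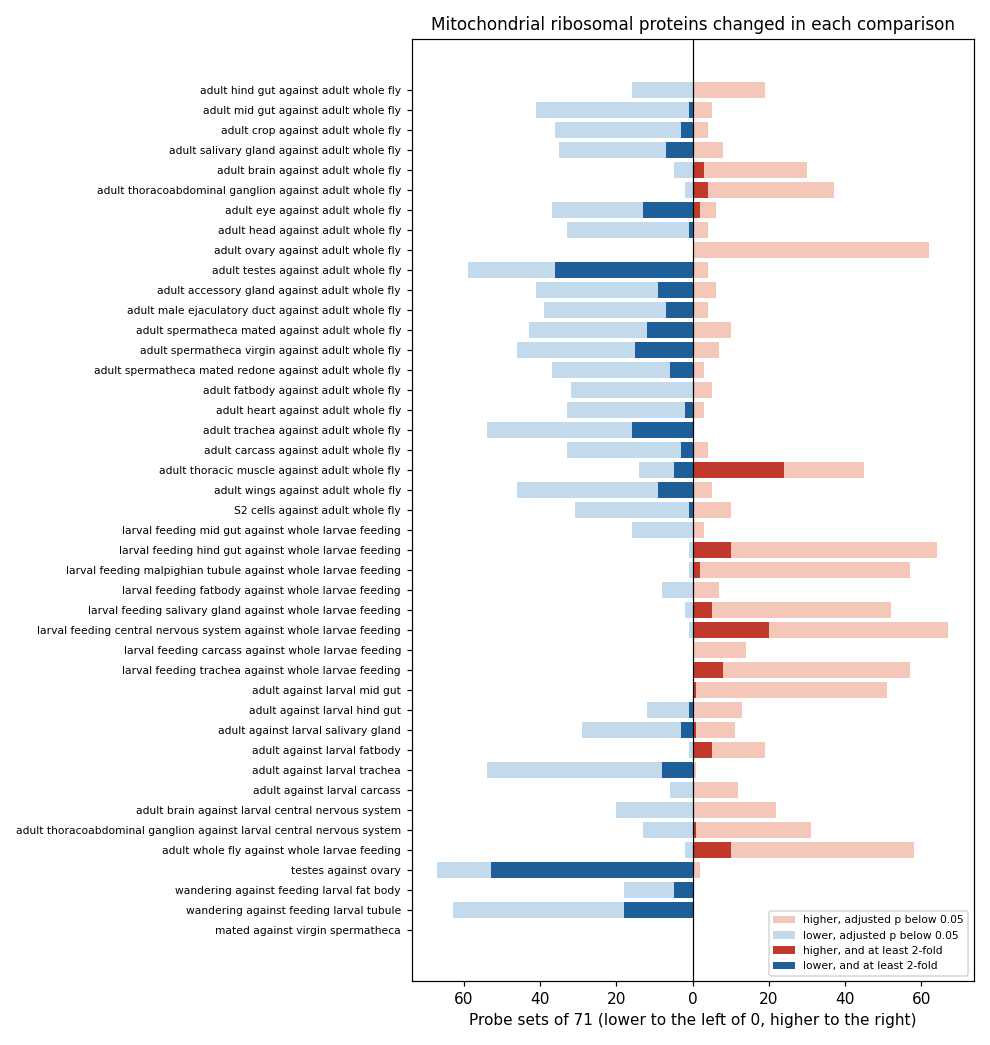
Number of the 71 members that were higher (right of 0) or lower (left of 0) in each comparison (y axis). Dark bars are those past both the adjusted p of 0.05 and 2-fold, light bars those past the adjusted p alone; the ovary has no dark bar and 62 in light, and testes against ovary has 53 in dark on the left.

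In feeding larval tissues the calls were all increases over the whole larva. Of 568 folds 45 were called up and 0 down, where 11.7% of the folds of all probe sets were up and 19.7% down. Members were thus called less often than probe sets at large in both directions. The larval central nervous system had 20 members up (27.4% of 13292 probe sets rose), the hindgut 10 (7.07%), the trachea 8 (12.4%), the salivary gland 5 (13.0%) and the tubule 2 (9.11%). Only in the hindgut did the members' share lie clearly above that of all probe sets. Midgut, fat body and carcass had 0 calls in limma, where 25.6%, 26.8% and 23.2% of all probe sets changed. At an unadjusted p under 0.05, 4 members were higher and 22 lower in midgut, 10 and 10 in fat body, and 20 and 0 in carcass. In the central nervous system the members' median log2 fold was 0.83 and that of all probe sets 0.25, and after quantile normalization 7 rose, with medians of 0.57 and 0.33.

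mRpL45, which in mammals ties the ribosome to the inner membrane, had 271, 297, 297 and 298 in the larval central nervous system, against 97.6, 98.1, 104 and 96.4 in the whole larva. mRpL16, next to the peptidyl transferase centre, had 351, 358, 359 and 355, against 143, 146, 116 and 129.9. All 4 tissue arrays lay above all 4 whole-larva arrays for both. Their log2 folds were 1.46 ± 0.07 and 1.35 ± 0.08, and that of mRpL54 was 1.32 ± 0.08 (SE; adjusted p in limma 8.1e-09, 6.2e-08 and 4.0e-08). In the larval hindgut mRpS29, a GTP-binding protein in mammals, rose to 247 ± 35.8 against 91.3 ± 3.72 (SD, n = 4 each). It was followed by mRpS35 and 1 of the 2 probe sets of mRpS11. The other mRpS11 probe set was not called in any larval tissue against the whole larva. In the larval tubule mRpL35 had 396, 399, 402 and 409, against 161, 159, 133 and 122 in the whole larva (log2 fold 1.43 ± 0.10, adjusted p in limma 3.8e-07). mRpL51 rose in both salivary gland and trachea, by 1.21 ± 0.11 and 1.12 ± 0.09.

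The stage comparisons set adult organs against their feeding larval counterparts. In the whole animal 10 members rose in adults and 0 fell, where 22.4% of all probe sets rose. mRpL17, at the rim of the peptide tunnel, had 444, 370.2, 365 and 391 in adults, against 178, 187, 139 and 169 in larvae. mRpL54 averaged 147 ± 5.92 in adults against 58.8 ± 3.33 in larvae (SD, n = 4 each; log2 fold 1.19 ± 0.09, adjusted p in limma 3.6e-07). The members' median was 0.59 and that of all probe sets 0.28; after quantile normalization these were 0.55 and 0.05.

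By organ, trachea had 8 members down in adults and 0 up (14.0% of all probe sets fell), but larval and adult trachea had different labelling kits, so stage and labelling cannot be told apart. Without adult trachea replicate 1, without larval trachea replicate 2 or after quantile normalization the count was 5. The fat body had 5 up and 0 down (9.37% rose), led by mRpL17 at 262 ± 44.2 against 115 ± 27.9. That count was 3 without adult fat body replicate 2 or larval replicate 3, 2 without larval replicate 4 and 8 without larval replicate 2. The salivary gland had 1 up and 3 down (12.8% and 9.14%): mRpS5 had 835, 987, 996 and 1000.0 in adults, against 298, 308, 289 and 329.5 in larvae. That gland's count of decreases was 5 without adult replicate 4. The midgut had 1 up (mRpL24, 5.06% of all rose), a call lost without larval midgut replicate 1 and after quantile normalization. The hindgut had 1 down (mRpL52, 7.18% fell), and the ganglion 1 up over the larval central nervous system (mRpS5, 12.7% rose), or 6 up after quantile normalization. Brain and carcass had 0 calls in limma, where 27.6% and 24.8% of all probe sets changed. At an unadjusted p under 0.05, 22 were higher and 20 lower in brain, and 17 higher and 8 lower in carcass. In carcass 3 members rose after quantile normalization or without larval carcass replicate 1.

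The adult effect differed between midgut and hindgut for 3 members in an interaction test, where 7.23% of all probe sets were higher in that sense. The difference of log2 folds, midgut minus hindgut, was 1.76 ± 0.19 for mRpL52, 1.06 ± 0.17 for mRpS29 and 1.03 ± 0.19 for mRpL12, a protein of the factor-binding stalk (SE; adjusted p in limma 2.0e-06, 0.00011 and 0.00042). The count was 5 without larval midgut replicate 3 or larval hindgut replicate 1, and 1 without larval hindgut replicate 3.

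Wandering larvae had lower levels than feeding larvae in both tissues sampled. The wandering and feeding samples carry sample numbers from separate blocks of the series, so stage and block cannot be told apart. The tubules were labelled as from 30 wandering and 50 feeding larvae. In tubules 18 of 71 members fell and 0 rose, where 3.53% of 12258 probe sets fell and 3.40% rose. The members' median log2 fold was -0.71 and that of all probe sets 0.08, and 70 of 71 folds were below 0. By the adjusted p alone 63 members were lower, where 14.0% of all probe sets were. After quantile normalization 11 fell, with medians of -0.67 and 0.01.

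mRpL48, without a bacterial counterpart, had 52.5, 55.0, 51.1 and 64.5 in wandering tubules, against 233, 242, 219 and 235 in feeding tubules. mRpL55 had 75.3, 105, 86.3 and 72.6, against 307, 297, 264 and 321. mRpL13 had 60.4, 61.9, 68.9 and 64.5, against 272, 262, 165 and 200.2. The groups were apart for all 3 genes, and the feeding arrays of mRpL13 were the most scattered. The log2 folds were -1.89 ± 0.09, -1.70 ± 0.12 and -1.64 ± 0.15 (SE; adjusted p in limma 4.5e-06, 1.2e-05 and 3.8e-05). With them fell 18 of 62 respiratory chain genes tested, bonsai, and the translation factors mEFTu1, mEFG1 and OXA1L, while 0 of 34 cytosolic ribosomal proteins were called. The tubule markers summed to 2795 to 3282 in wandering and 2461 to 2757 in feeding tubules, with 3 of the 4 genes below a signal of 50 in both. That list summed to 4627 to 5217 in adult hindgut and 3824 to 4167 in the ganglion. It is thus not particular to tubule and does not measure tubule content. The fat body list summed to 594 to 2662 in wandering and 1127 to 2189 in feeding tubules. The heart and nephrocyte list summed to 328 to 462 in wandering and 132 to 220 in feeding tubules, and its part in these folds was not tested.

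In fat body 5 members fell in wandering larvae and 0 rose, where 4.68% of 12316 probe sets fell and 3.96% rose. The medians were -0.53 for members and 0.09 for all probe sets, and 69 of 71 folds were below 0. After quantile normalization 7 fell, with medians of -0.65 and -0.12, and with a pseudocount of 40 in place of 10 the count was 0. mRpL48 had 39.7, 42.1, 33.7 and 39.5 in wandering fat body, against 109, 188, 94.5 and 73.7 in feeding fat body. mRpL23 had 29.4, 22.1, 37.9 and 23.5, against 63.1, 146, 68.4 and 72.3. Feeding replicate 2 was the highest array for both and replicate 4 of the feeding group correlated better with wandering arrays (r = 0.952) than with its own group (0.925 at best). The log2 folds were -1.30 ± 0.25 and -1.30 ± 0.26, and that of mRpL18 was -1.20 ± 0.30 (SE; adjusted p in limma 0.0094, 0.012 and 0.028). The count was 2 without feeding replicate 2 and 6 without feeding replicate 3 or 4. Markers of other tissues varied between arrays. The salivary gland list summed to 3292, 35.6, 2035 and 2680 in wandering fat body, against 35.95 to 104.5 in feeding fat body. The midgut list summed to 26.0 to 1385 in wandering fat body, against 75.6 to 152 in feeding fat body, and the testis list to 112 to 986, against 24.5 to 294.6. The fat body list summed to 25620 to 44400, against 27860 to 37000, and the part of the other tissues in these folds was not tested.

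An interaction test found 1 member, mRpL55, that responded differently to wandering in fat body and in tubule, by 1.10 ± 0.29 (SE, fat body minus tubule; adjusted p in limma 0.020), where 3.32% of all probe sets were higher in that sense. It was called in none of the fits after quantile normalization, with a pseudocount of 40 or without feeding fat body replicate 3 or 4; without feeding fat body replicate 2 the count was 3, and it was 2 without feeding tubule replicate 3, wandering fat body replicate 1 or wandering tubule replicate 1.

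Between mated and virgin spermathecae 0 members were called in limma, 0 by its adjusted p alone, and 12 higher and 1 lower at an unadjusted p under 0.05. Of all probe sets 0.266% rose and 0.473% fell. The members' median log2 fold was 0.12 and that of all probe sets 0.06.

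The number 18 is carried by 3 paralogs, which mammalian structures place apart, the A form in the large subunit and the B and C forms in the small. mRpS18A varied most, with an SD of 0.67 over group means, from 79.1 in wandering tubules to 620.1 in muscle. mRpS18B ranged from 84.4 in wandering fat body to 381 in muscle (SD 0.51). mRpS18C ranged from 48.0 in wandering tubules to 244 in the thoracoabdominal ganglion (SD 0.51). All 3 had their lowest mean in a wandering larval tissue.

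The 8 genes outside the members whose 34 group means correlated best with the members' mean, among 9771, were tko (r = 0.88), ECSIT and CG4553 (0.86 each), and CG13126, CG4882, bsf, CG14100 and CG14683 (0.85 each). tko is itself a protein of the mitochondrial small subunit. For comparison, the members' mean had r = 0.26 with the mean of respiratory chain genes and -0.28 with that of cytosolic ribosomal proteins over the same groups. These are descriptions over group means that share arrays and scaling.

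By the current gene table, 41 of the 69 member genes overlap another gene, among them mRpS9 with ArgRS-m and wtrw, mRpL39 with Zip71B, mRpL42 with Cdc2rk, mRpL41 with CG11808, mRpL15 with Psn and mRpL43 with sigmar. Whether a neighbour's transcript adds to a probe set's signal was not tested. The 2 probe sets of mRpS11 had log2 folds of 0.72 and 0.07 in muscle over the whole fly, and those of mRpL47 had 0.78 and 1.11, so only 1 of the mRpL47 pair was called. In testes over ovary all 4 fell.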

How the data were processed

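The deposited values are linear signal intensities, 1 for each probe set of an array, which the authors had scaled: the mean without 2% at each end lay between 100.002 and 100.0065. The software and summary method are not given in the sources used here. Of 18952 probe sets 183 controls were left out. Symbols came from the array annotation, updated through RefSeq's gene table: 13647 probe sets had 1 symbol, 402 several and 4720 none listed here. mRpS10 and mRpL53 had only probe sets shared with another gene, and mRpL34 and mRpL37 had none matching the rule.

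Arrays were brought to a trimmed mean of 100, a pseudocount of 10 was added (10% of it), and log2 was taken. In R 4.3.3, limma 3.58.1 (lmFit, then eBayes) was run on 2 groups at a time for 43 comparisons and on 4 groups for 2 interactions. A probe set was tested where its mean log2 value was at or over the 40th percentile in any group compared. A call needed a 2-fold change and an adjusted p (Benjamini-Hochberg) of under 0.05. Except for the adjusted p in ovary and wandering tubules, counts of members by p alone have no share of all probe sets beside them. They do not tell whether the members differed from other probe sets. The number of arrays, 3 or 4 per group, limits precision. In 0 of 43 comparisons did residuals of all equal replicate numbers correlate above 0.1 (range -0.47 to 0.55), so numbers did not pair arrays. No 2 arrays were identical. The fit was tested on simulated data.

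In each comparison up to 3 called members each way with non-overlapping arrays could be named, plus the 6 most and 4 least variable members, the lettered paralogs, the 2 largest called changes each way per list and the 8 genes most like the members' mean; others were named after their values were seen. Members and lists were chosen with earlier results of these data known. Each list gene was read from the brightest of its probe sets. Import, respiratory chain and cytosolic ribosomal genes were taken by name. In no comparison were paralogs restricted to some tissues separated from the rest of these lists. A list of RNA-processing and assembly genes was fitted too: of 9 genes 0 rose and 7 fell in testes against ovary. Alternatives were quantile normalization, unscaled deposited values, pseudocounts of 2 and 40, a filter at the 60th percentile and none, a replicate block, 1 fit of all groups, 1 probe set per gene, the 2 arrays put back, and each array left out. Adult Malpighian tubule and promoter sequences were not analysed here.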

Additional observations from a re-analysis of the deposited data

Results flagged for a closer look

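Of 32 groups of 4 arrays, 2 had 1 array far from the other 3 in the members' mean signal: adult crop replicate 2, at 181, and feeding larval fat body replicate 2, at 185. Of 136 sets of 4 arrays of named members, 8 had such an array. These were mRpS5 in thoracoabdominal ganglion replicate 3 (1739) and in adult salivary gland replicate 1 (835), mRpS29 in adult carcass replicate 3 (74.8), mRpL45 in larval central nervous system replicate 1 (271) and mRpL39 in larval trachea replicate 4 (120.3). The other 3 were all in feeding larval fat body replicate 2: mRpL49 (171), mRpL23 (146) and mRpL18 (251). Chance alone marks about 1 in 20 sets.

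Interaction tests gave members whose effect differed between organs. For wandering against feeding in fat body and tubule it was 1 of 71, mRpL55, where 3.32% of all probe sets were called higher. For adult against larva in midgut and hindgut there were 3 of 71, mRpL52, mRpL12 and mRpS29, where 7.23% were. In both tests the members' share was below that of all probe sets. The array labelled redone mated spermatheca replicate 2, which was left out, had a members' mean signal of 417, above every whole-fly array (199 to 230.1).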

How the results depend on the processing

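No paired design was found, and with replicate number as a block the counts kept within 1.5 times of those reported, except in wandering against feeding fat body, where 2 members fell in place of 5. Values as deposited, no filter, the 60th percentile filter, 1 fit of all groups and 1 probe set per gene moved no count of the sets of comparisons by over 1.5 times. Of 94 named folds 0 reversed; quantile normalization left 84 called, a pseudocount of 40 left 73 and the block left 92.

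Quantile normalization gave 58 higher calls (33 reported) against the whole fly, 11 lower in wandering tubules (18), and 0 (1) and 1 (3) in the fat body and gut interactions. It also moved adult against larval counterparts to 25 higher and 9 lower, against 18 and 12 reported. A pseudocount of 40 gave 95 lower calls against the whole fly (146), 16 higher against the whole larva (45), 3 higher and 4 lower in adult against larval counterparts, 0 in wandering fat body, 9 in wandering tubules, and 0 and 1 in the interactions; a pseudocount of 2 gave 6 in the gut interaction. The cause was not tested. With the 2 arrays put back, 22 higher and 141 lower calls stood against the whole fly.

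By the adjusted p alone, added after the data were seen, 281 were higher and 713 lower against the whole fly, 321 and 29 against the whole larva, 218 and 137 in adult against larval counterparts, 2 higher in testes against ovary, 18 lower in wandering fat body, 63 in wandering tubules, and 9 and 41 in the interactions. Leaving out 1 array, or the arrays of 1 replicate number from each group, gave 7 to 19 lower in adult against larval counterparts, 1 to 6 in wandering fat body, and 0 to 3 and 1 to 5 in the interactions. Array number and labelling that differs between groups limit these comparisons.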

Other observations

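2 further probe sets match a gene of the family together with another gene and were not counted as members. The one shared by mRpL53 and CG33155 had a mean signal of 1226 ± 179 in thoracic muscle (SD, n = 3), against 348 ± 17.2 in the whole fly (n = 4). It had 150.4 ± 15.9 in testes, against 394 ± 9.06 in ovaries (n = 4 each). The one shared by mRpS10 and CG34316 had 351.5 ± 74.9 in muscle, against 239.6 ± 35.5 in the whole fly, and 244 ± 11.2 in testes, against 339.7 ± 9.88 in ovaries. These values were not tested, and which of the 2 genes gives the signal was not tested either.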
